A study of Homo sapiens with 6 samples.

Results

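The LIN28, IGF2BP and HMGA genes are a set of 7 oncofetal genes, that is, genes active in the embryo, largely silent in most adult tissues and switched on again in tumors. They were taken by symbol from the deposited tables, which hold 22718 genes. LIN28B, IGF2BP1, IGF2BP2, IGF2BP3 and HMGA1 have a row each. LIN28A and HMGA2 were not analysed here. The study asked how transcript levels in urothelial carcinoma lines change under panobinostat, an inhibitor of the histone deacetylases. Total RNA was sequenced from 6 libraries labelled HT1197, an established human bladder carcinoma line. The cells were kept for 48 hours in vehicle (1% DMSO, labelled untreated; 3 libraries) or in panobinostat (3 libraries) at 2 times the line's IC50 (its inhibitory dose). The libraries of each arm carry the letters A, B and C, and all 6 are labelled as this 1 line, with no genetic change named.

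LIN28A and LIN28B are RNA-binding proteins that block the maturation of let-7, a microRNA family that lowers growth genes, and let-7 in turn targets the LIN28 mRNAs. IGF2BP1, IGF2BP2 and IGF2BP3 bind and stabilize mRNAs, among them IGF2 and MYC and many carrying N6-methyladenosine (m6A), and HMGA1 and HMGA2 are AT-hook proteins that bend DNA and shape chromatin. HMGA2, IGF2BP1 and LIN28B are textbook let-7 targets, so the 3 families are often described as 1 oncofetal circuit. In cancers of neural crest origin LIN28B is known for raising MYCN.

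Total counts per library ran from 13417898 to 18186087, so that 3 counts, taken as the detection floor, correspond to 0.161 to 0.216 CPM (the count scaled by TMM to the size of the library). In both arms the A library lay farther from B and C than those lay from each other, and leaving out both A libraries changed no call among the 5 genes. Markers went against the bladder label. Of 24 urothelial and epithelial markers 13 had a row, 3 of these (UPK1B, FOXA1 and TP63) were at 0 counts in all vehicle libraries, and 1 (GATA3, also a neuroblast marker) reached a mean of 10 FPKM with vehicle, where FPKM is the count scaled by gene length and library size. Their summed level was 13.2 to 17.4 FPKM with vehicle and 15.2 to 18.4 with panobinostat. Of 19 sympathetic neuroblast markers 17 reached 10 FPKM, with a summed level of 2150 to 2450 FPKM with vehicle and 1750 to 1860 with panobinostat. MYCN alone stood at 832 FPKM with vehicle. The identity of the line is therefore in doubt, and the libraries are called HT1197 only because they are labelled so. The origin of the cells and the part of a lineage change in the results below were not tested. Fibroblast markers summed to 62.1 to 65.3 FPKM with vehicle and 95.6 to 102 with panobinostat. Of 8 tested 5 rose and 3 fell, against 33.7% risen and 31.5% fallen among all genes tested. DCN, among these rises, had 6 vehicle and 89 panobinostat counts and passed the filter on low counts only through the panobinostat arm. Among the rises were LUM, from 0.654 to 42.4 FPKM, and COL1A1, from 0.253 to 3.62 FPKM. The falls were FBLN1 (21.4 to 11.7 FPKM), THY1 (6.19 to 4.79) and PDGFRA (30.5 to 28.4, not called in 10 of 17 alternatives). The part of these fibroblast marker changes in the results was not tested. Leukocyte markers (at most 1.09 FPKM in sum) and endothelial markers (at most 0.564) were near 0 in both arms. In bulk RNA, fewer cells of a type and less RNA per cell cannot be told apart.

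Of the 5 genes, LIN28B, IGF2BP1, IGF2BP3 and HMGA1 were abundant with vehicle and fell with panobinostat, while IGF2BP2 was close to absent and reached about 1 CPM. A fall was called for 31.5% of the 16084 genes tested and a rise for 33.7%, with a threshold of 0.05 on the adjusted p (Benjamini-Hochberg) of edgeR's quasi-likelihood test. All 4 genes that fell had a mean of 100 CPM or more over the libraries, and of the 2472 genes at that level 48.1% fell. A call of a fall was therefore common, and the size of the change says more. A fall of at least 2-fold was called for 5.27% of all genes tested and for 4.65% of those at 100 CPM or more. IGF2BP1, LIN28B and HMGA1 fell by more than that, and IGF2BP3 lay just short of it. Only 1.10% of genes tested had a lower log2 fold change than IGF2BP1, against 2.13% for LIN28B, 3.63% for HMGA1 and 5.90% for IGF2BP3.

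**Figure D1:**
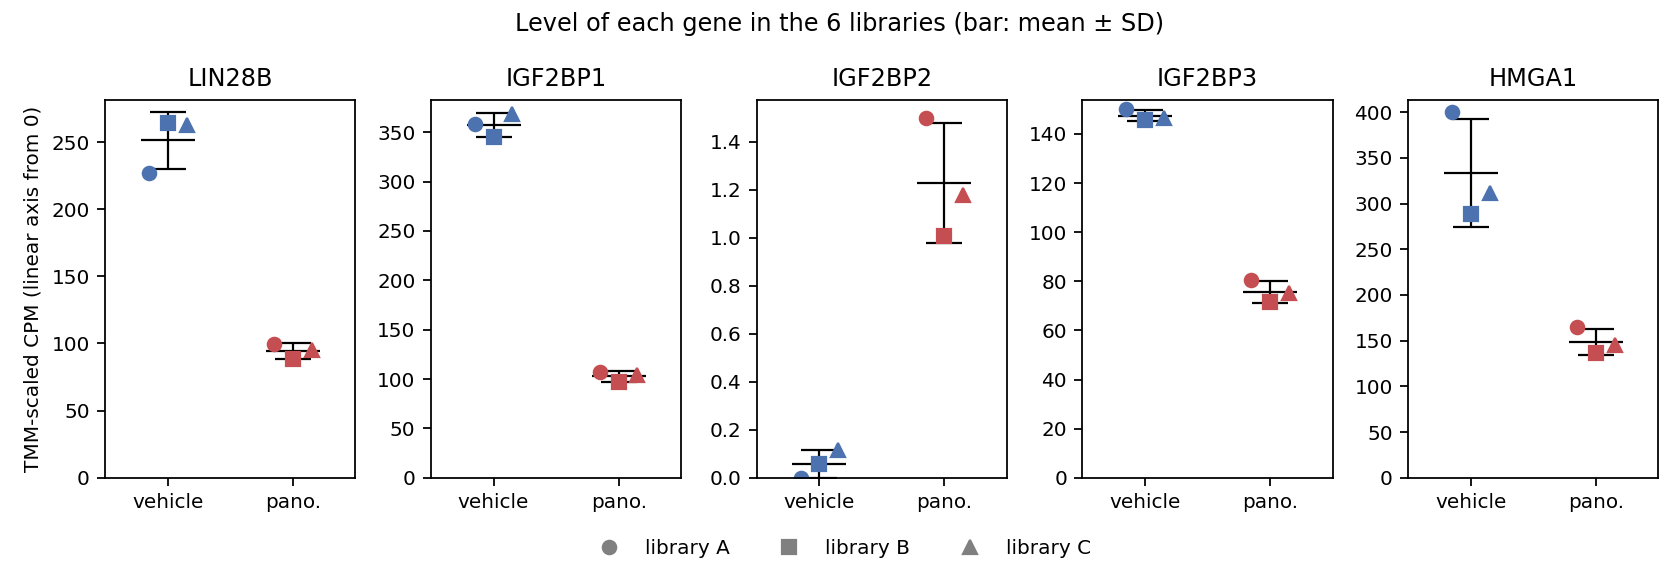
TMM-scaled CPM (linear axes from 0, a scale of its own for each gene) of LIN28B, IGF2BP1, IGF2BP2, IGF2BP3 and HMGA1 in 3 vehicle and 3 panobinostat libraries, with the mean and SD as bars and the library letter as the marker shape. The vehicle and panobinostat points do not overlap for any of the 5 genes. How many of all genes tested share this was not counted, so it is not read as a trait of these genes. A fall was called for 31.5% of all genes tested and a rise for 33.7%. IGF2BP2 stays below 1.5 CPM.

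**Figure D2:**
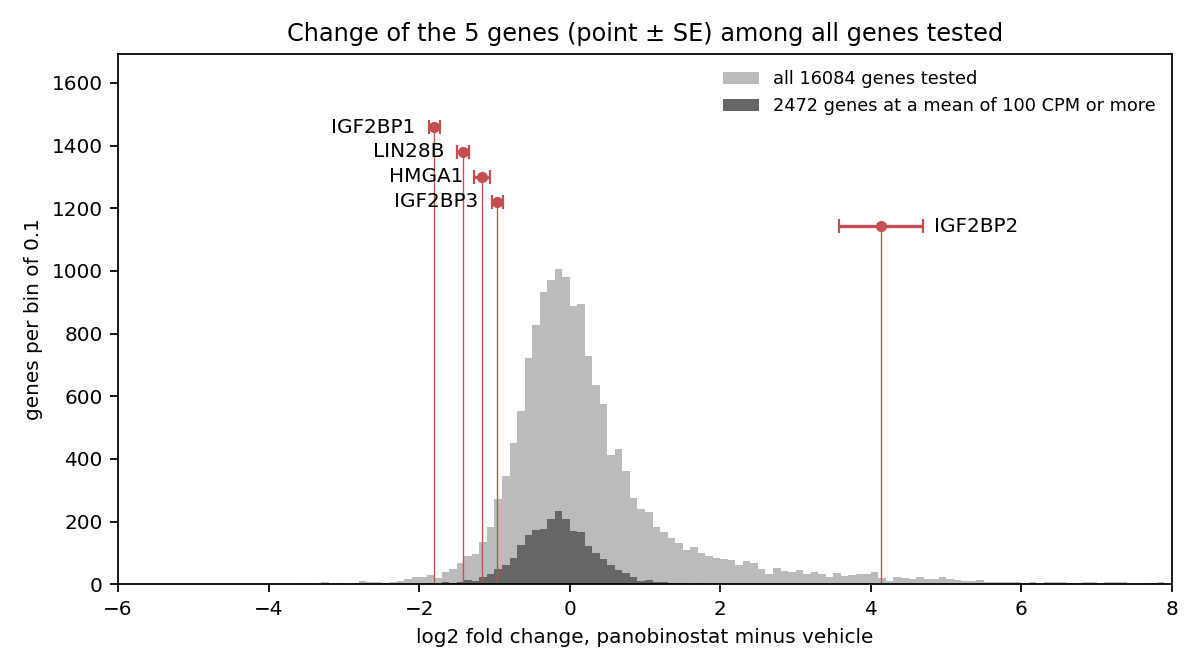
Number of genes per bin of 0.1 in log2 fold change (panobinostat minus vehicle) for all 16084 genes tested and for the 2472 with a mean of 100 CPM or more, with the 5 genes as points with their SE at arbitrary heights. IGF2BP1, LIN28B, HMGA1 and IGF2BP3 lie in the lower tail of both distributions, and IGF2BP2 lies at a fitted value that rests on 3 vehicle counts.

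LIN28B, which blocks the maturation of let-7, had 226.9, 263.9 and 263.0 CPM in vehicle libraries A, B and C and 99.34, 88.13 and 95.51 CPM with panobinostat. The lowest vehicle library stood well above the highest panobinostat library, and vehicle A was the low one of its arm. Its mean went from 251.3 ± 21.1 to 94.33 ± 5.70 CPM (SD, n = 3 each), a 2.67-fold fall (log2 fold change -1.41 ± 0.08 SE, edgeR adjusted p = 1.89e-09). Per length it stood at 43.83 ± 3.32 FPKM with vehicle and 17.79 ± 1.07 with panobinostat. With vehicle LIN28B ranked 1015 among the 22718 genes by FPKM. The gene lies on the plus strand at chr6:104936616-105083332 (GRCh38). Its divergent neighbour LIN28B-AS1, counted by strand, had 41 counts over the vehicle libraries and 67 over the panobinostat libraries (log2 fold change 0.67, adjusted p = 0.106), so the fall of LIN28B was not seen there. Among the 3 nearest genes with a row on each side of LIN28B, 1 fell, 3 rose and 2 did not pass. POPDC3, among these rises, had 5 vehicle and 165 panobinostat counts, so it passed the filter on low counts only through the panobinostat arm. The neighbours of each member are to be read beside the 31.5% of all genes tested that fell and the 33.7% that rose.

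The 3′ UTR of LIN28B holds the letters that pair with the let-7 seed (bases 2 to 8), shown here because all 5 genes carry it. RefSeq (GRCh38.p14) lists 11 mature names with the seed GAGGUAG, and let-7a, let-7d and let-7g stand for them below, the seed in capitals. The full matches to it (CTACCTC, in capitals) in the 3′ UTR of 1 LIN28B transcript of GENCODE 29 follow, each with 21 bases before and 1 after.
hsa-let-7a-5p: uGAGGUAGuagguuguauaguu
hsa-let-7d-5p: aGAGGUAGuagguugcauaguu
hsa-let-7g-5p: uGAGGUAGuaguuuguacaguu
LIN28B site 1, chr6:105078806-105078834, plus strand: tcctttacccggttgcaaagtCTACCTCa
LIN28B site 2, chr6:105081233-105081261, plus strand: attatgtactgatgatagtaaCTACCTCt
LIN28B site 3, chr6:105081415-105081443, plus strand: tactctgtttacagcaaaaggCTACCTCa
LIN28B site 4, chr6:105082854-105082882, plus strand: gcttgaaaatgatggtgttgaCTACCTCt
LIN28B thus has 4 matches in 4549 bases, 2 of them followed by an A. Of 1210 UTRs within 20% of that length 0.248% have as many. A match is a description of the letters and says nothing of use, and mature let-7 was not analysed here.

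IGF2BP1, the paralog best known for shielding MYC and other growth mRNAs from decay, had 358.7, 345.0 and 368.7 CPM in vehicle libraries A, B and C and 107.6, 96.53 and 104.1 CPM with panobinostat. The arms were separated by more than 3 times, with a spread of a few percent inside each. The mean went from 357.4 ± 11.9 to 102.7 ± 5.67 CPM (SD, n = 3 each), a 3.48-fold fall (log2 fold change -1.80 ± 0.07 SE, edgeR adjusted p = 5.16e-11). Per length the level was 37.70 ± 1.35 FPKM with vehicle and 11.71 ± 0.64 with panobinostat. IGF2BP1 lies at chr17:48997412-49055650 on the plus strand. Of its 6 nearest genes with a row, 4 were too low to be tested and 2 did not pass.

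Its 3′ UTR is 6206 bases long in the transcript used and holds 4 matches to the let-7 seed, as many as in LIN28B, 3 of them followed by an A.
IGF2BP1 site 1, chr17:49051055-49051083, plus strand: caatgctgtgtgcgaagtaaaCTACCTCa
IGF2BP1 site 2, chr17:49053692-49053720, plus strand: gggaaccagcagtgctagtaaCTACCTCa
IGF2BP1 site 3, chr17:49054346-49054374, plus strand: ctacgagtataaatggattaaCTACCTCa
IGF2BP1 site 4, chr17:49054991-49055019, plus strand: cccatttcacttttgttttatCTACCTCt
Of 672 UTRs of similar length 0.595% have as many.

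IGF2BP3, the paralog most often used as a tumor marker, had 150.0, 145.6 and 146.6 CPM in vehicle libraries A, B and C. With panobinostat it had 80.50, 71.63 and 75.27 CPM. The vehicle libraries lay within 5 CPM of each other, and even the highest panobinostat library lay far below all 3. The mean went from 147.4 ± 2.35 to 75.80 ± 4.46 CPM (SD, n = 3 each), a 1.95-fold fall (log2 fold change -0.96 ± 0.07 SE, edgeR adjusted p = 2.77e-08). Per length the level was 16.64 ± 0.41 FPKM with vehicle and 9.245 ± 0.568 with panobinostat. IGF2BP3 lies on the minus strand at chr7:23310209-23470467, and of its 6 nearest genes with a row 3 fell, 2 rose and 1 was not tested. GPNMB, among these rises, rests on few counts (26 over the vehicle and 109 over the panobinostat libraries). Its vehicle libraries alone would not have passed the filter on low counts, so its call is no independent support.

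Among the genes with a promoter entry in the RefSeq table (IGF2BP2, IGF2BP3, LIN28B and HMGA1), IGF2BP3 has the one whose 250 bases before the start hold the letters CACGTG (the E-box bound by MYC and MYCN, its own reverse complement) more than once. It is shown for that reason, with the E-boxes in capitals, beside the only let-7 seed match of the gene.
IGF2BP3 promoter, GRCh38.p14, chr7:23470492-23470741, minus strand: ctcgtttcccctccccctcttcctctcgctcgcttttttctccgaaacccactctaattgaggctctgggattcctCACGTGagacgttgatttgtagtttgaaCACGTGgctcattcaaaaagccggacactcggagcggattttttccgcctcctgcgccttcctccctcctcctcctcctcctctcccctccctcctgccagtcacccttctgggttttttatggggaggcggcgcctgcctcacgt
IGF2BP3 site 1, chr7:23311795-23311823, minus strand: taaacgtgcatttttactcaaCTACCTCa
The E-boxes begin 174 and 146 bases before the start. Of 35116 promoter windows of that length 6.34% hold CACGTG and 0.535% hold it at least 2 times. The window of 1 of the LIN28B starts holds 1 such match, 47 bases before the start, and no CACGTG is in the other windows of LIN28B or in those of HMGA1 and IGF2BP2. Of the 1276 genes tested with CACGTG in a window 39.7% fell, against 34.2% of the 10124 without. MYCN, the most abundant MYC gene here, fell from 832 to 579 FPKM (log2 fold change -0.64 ± 0.08 SE), and whether this bears on the members was not tested. The single let-7 match in 2153 bases is common, since 12.1% of 2153 UTRs of similar length have 1 or more.

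IGF2BP2, the paralog that stays active in adult tissues and is known as a target of HMGA proteins, had 0, 1 and 2 counts in vehicle libraries A, B and C. With panobinostat it had 21, 17 and 22 counts. All vehicle libraries were under the floor of 3 counts and all panobinostat libraries were above it. The 60 panobinostat counts against 3 vehicle counts gave a ratio of 19.5 after scaling (95% exact counting interval 6.35 to 97.1, counting error only). IGF2BP2 passed the filter on low counts only through the panobinostat arm, so that its call (edgeR adjusted p = 1.20e-05) is no independent support. At 0.269 ± 0.056 FPKM with panobinostat it remained far below its paralogs. The gene lies at chr3:185643739-185825056 on the minus strand, and of its 6 nearest genes with a row 1 rose (ETV5), 1 fell (TRA2B), 3 did not pass and 1 was not tested. Its 3′ UTR holds 1 let-7 seed match.
IGF2BP2 site 1, chr3:185644220-185644248, minus strand: gagaaaaacacacagaagaagCTACCTCa

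Within the IGF2BP family the summed level went from 54.4 ± 1.59 FPKM with vehicle to 21.2 ± 1.25 with panobinostat (SD, n = 3 each). IGF2BP1 made up 69.1%, 68.9% and 70.1% of this sum in the vehicle libraries and 54.7%, 55.1% and 55.7% in the panobinostat libraries. The share of IGF2BP3 went from 30.6% ± 0.7 to 43.6% ± 0.4, and that of IGF2BP2 from 0.0216% ± 0.0211 to 1.26% ± 0.19. The balance between the paralogs therefore differed between the arms by more than the spread inside them. The FPKM ratio of IGF2BP1 to IGF2BP3 was 2.23, 2.21 and 2.35 with vehicle and 1.25, 1.26 and 1.29 with panobinostat, without overlap. An exact permutation test on it gave a two-sided p of 0.1 (0.15 adjusted over the 6 ratios compared), the smallest that 3 libraries against 3 allow.

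**Figure D3:**
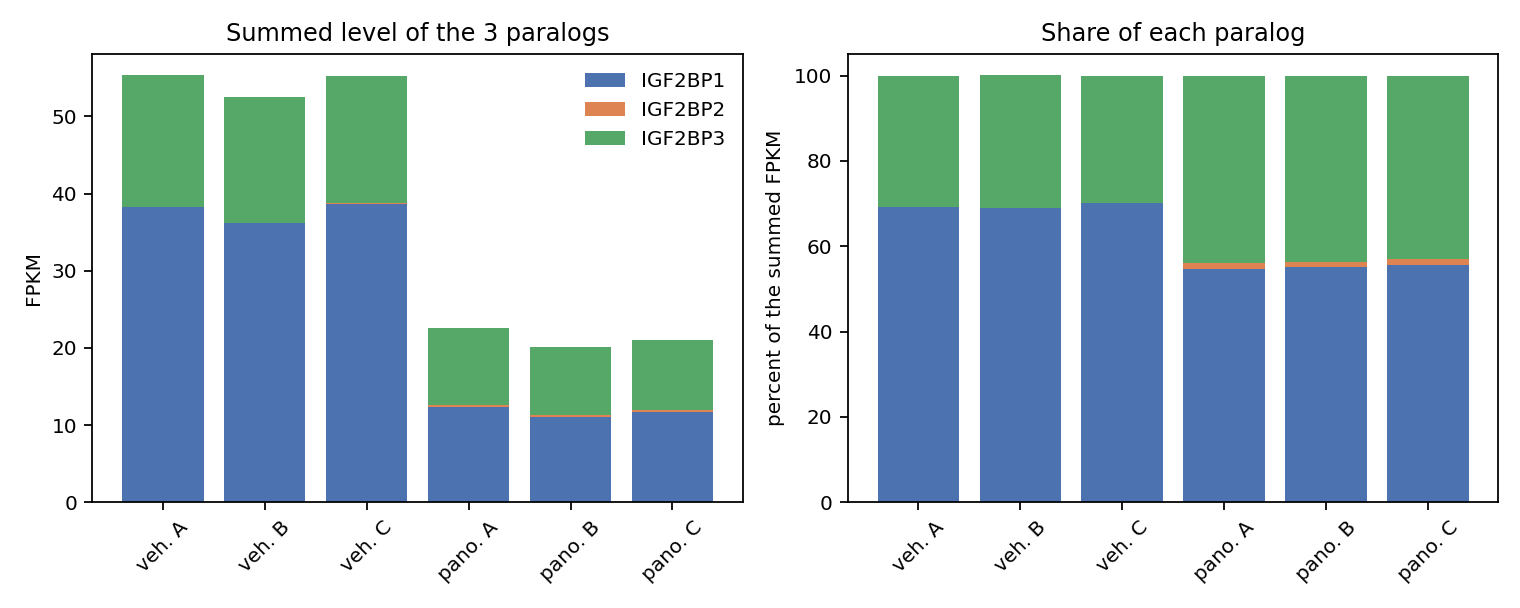
Left, FPKM of IGF2BP1, IGF2BP2 and IGF2BP3 stacked in each of the 6 libraries (veh., vehicle; pano., panobinostat); right, the same as percent of their sum. The sum goes from 54.4 to 21.2 FPKM on average and the IGF2BP1 share from 69.4% to 55.2%, with IGF2BP2 barely visible.

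HMGA1, the HMGA gene expressed in most dividing cells, had the highest level per length of the 5 in both arms. Its values were 400.3, 288.7 and 311.3 CPM in vehicle libraries A, B and C and 164.4, 136.2 and 145.7 CPM with panobinostat. Library A was the highest of its arm in both, and the lowest vehicle library still stood above the highest panobinostat library. The mean went from 333.5 ± 59.0 to 148.8 ± 14.4 CPM (SD, n = 3 each), a 2.24-fold fall (log2 fold change -1.17 ± 0.11 SE, edgeR adjusted p = 3.31e-07). The spread among the vehicle libraries was 17.7% of the mean, against 8.39% for LIN28B, 3.34% for IGF2BP1 and 1.59% for IGF2BP3. Without both A libraries the log2 fold change of HMGA1 was -1.09 ± 0.06. Per length the level was 137.8 ± 25.7 FPKM with vehicle (rank 224) and 66.37 ± 6.62 with panobinostat. The counts of HMGA1 are uncertain to the extent that reads were shared with its processed copies. The rows of HMGA1P8 (70 counts over the vehicle and 43 over the panobinostat libraries) and HMGA1P1 (10 and 8) are small beside the 15875 and 7326 counts of HMGA1.

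HMGA1 lies at chr6:34236873-34246231 on the plus strand. Of its 6 nearest genes with a row 2 rose, 1 did not pass and 3 were not tested. GRM4, among these rises, had 6 vehicle and 56 panobinostat counts and passed the filter only through the panobinostat arm. HMGA1 carries 1 let-7 seed match, which is not followed by an A.
HMGA1 site 1, chr6:34245823-34245851, plus strand: catttttcctctgttcacaaaCTACCTCt
Across the genes tested that have a UTR in the annotation, 35.6% of those without a match fell, against 35.7% with 1 match, 39.8% with 2 and 44.4% with at least 3 (11547, 1139, 113 and 27 genes). The median log2 fold changes of these classes were -0.03, -0.03, -0.07 and -0.05, and UTR length grew with the number of matches, from a median of 1029 bases to 5954. LIN28B and IGF2BP1, with 4 matches each, had larger falls than IGF2BP3 and HMGA1 with 1 each, while IGF2BP2 with 1 match went up, and 5 genes give no test of this.

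Per length, the order with vehicle was HMGA1 (137.8 FPKM), LIN28B (43.83), IGF2BP1 (37.70), IGF2BP3 (16.64) and IGF2BP2 (0.0117). With panobinostat it was the same (66.37, 17.79, 11.71, 9.245 and 0.269 FPKM). Neighbours in this order did not overlap in any library of their arm. LIN28B and IGF2BP1 were the closest pair with vehicle, at a ratio of 1.05, 1.27 and 1.18, and moved apart with panobinostat, at 1.53, 1.51 and 1.52. The ratio of LIN28B to IGF2BP3 was 2.64 ± 0.26 with vehicle and 1.92 ± 0.03 with panobinostat, and that of IGF2BP1 to HMGA1 was 0.279 ± 0.043 and 0.177 ± 0.008. None of these overlapped between the arms (exact permutation p = 0.1 for each, 0.15 adjusted). LIN28B to HMGA1 (0.328 ± 0.078 and 0.269 ± 0.012, exact p = 0.4) and IGF2BP3 to HMGA1 (0.123 ± 0.018 and 0.140 ± 0.005, exact p = 0.2) overlapped. The fitted fall was largest for IGF2BP1 and smallest for IGF2BP3. With 3 libraries against 3 the exact p cannot lie below 0.1, so no ratio could pass and the test does not decide this order. HMGA1 was not separated from LIN28B or IGF2BP3, whose ratios to it overlapped between the arms.

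The genes whose pattern over the 6 libraries lay nearest to each member were taken from the 9930 that average at least 10 CPM, by the root mean square difference in centred log2 CPM. Nearest to LIN28B were SLC1A2 (0.0406), UTP20 (0.0542) and NSD1 (0.0671). Nearest to IGF2BP1 were CABLES1 (0.0407), ALK (0.0556), the receptor kinase of neuroblasts, and CYFIP1 (0.0578). Nearest to IGF2BP3 were PHACTR3 (0.0143), SRSF8 (0.0248) and EPC1 (0.0267), and among the nearest to HMGA1 were UNC5A (0.0421) and ARHGAP17 (0.0711). IGF2BP2 had no such close gene, with DSEL (0.187), FMN1 (0.210) and SAMD5 (0.247) the nearest. These distances are mostly set by the difference between the arms, which many genes share.

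Genes of let-7 processing and LIN28 partners mostly fell beside LIN28B. Of 20 with a row 19 were tested, 13 fell and 3 rose, with a median log2 fold change of -0.50 against 0.01 for all genes tested and -0.17 for those at 100 CPM or more. The counts of this and each later list are to be read beside the shares over all genes tested, 31.5% fallen and 33.7% risen. Of those at 100 CPM or more 48.1% fell. DICER1, which cuts the let-7 hairpin, fell from 43.8 to 27.3 FPKM (log2 fold change -0.80 ± 0.09 SE). AGO1, which loads mature microRNAs, fell by 0.73 ± 0.10 on the log2 scale, SYNCRIP, an RNA-binding partner, by 0.97 ± 0.08, and MSI1, which works with LIN28 on let-7 precursors, by 1.64 ± 0.18. The rises were TUT4 (0.18 ± 0.08) and TUT7 (0.25 ± 0.10), the terminal uridylyltransferases recruited by LIN28, and TRIM25 (0.39 ± 0.13). These rises were small, and leaving out 1 library left 0 to 2 of them called. TUT4 and TUT7 each lost their call without vehicle A, vehicle B, panobinostat A or panobinostat B (adjusted p from 0.0522 to 0.172). TUT4 also lost it without vehicle C or panobinostat C, and TRIM25 lost it without vehicle B, vehicle C or panobinostat A. DIS3L2, the nuclease that degrades uridylated let-7 precursors, did not pass (2.45 and 2.57 FPKM). TRIM71, itself a let-7 target, had 8 counts with vehicle and 1 with panobinostat and was not tested.

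Of 10 let-7 precursor and host transcripts with a row 6 could be tested, and 4 fell and 1 rose (median log2 fold change -0.36). MIRLET7BHG, which hosts let-7a-3 and let-7b, fell from 0.882 to 0.298 FPKM (log2 fold change -1.64 ± 0.28 SE), MIR99AHG, which hosts let-7c, fell by 0.56 ± 0.16 on the log2 scale, and HUWE1, which hosts let-7f-2 and miR-98, by 0.43 ± 0.11. MIR100HG, which hosts let-7a-2, rose by 0.48 ± 0.12. The falls of MIR99AHG and HUWE1 did not pass with limma on log2 FPKM (adjusted p from 0.0593 to 0.0713 and from 0.0601 to 0.0830). The fourth fall, of WDR82 (-0.20 ± 0.07), was small and not called in 9 of 17 alternatives. With limma the list held 0 falls where a filter at 1 FPKM was applied, which removed MIRLET7BHG, and 1 without it. These are levels of long transcripts and do not give the amount of mature let-7. The 4 precursor genes with a row of their own (MIRLET7A1, MIRLET7D, MIRLET7F1 and MIRLET7I) had at most 5 counts in either arm.

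Other let-7 target genes went both ways. Of 29 with a row 28 were tested, 14 fell and 7 rose (median log2 fold change -0.16). The fall of NRAS was not called in 12 of 17 alternatives. Limma on log2 FPKM called 12 falls and 5 rises with a filter at 1 FPKM, and 10 falls and 8 rises without it. COIL, a marker of Cajal bodies, fell from 36.8 to 15.6 FPKM (log2 fold change -1.34 ± 0.08 SE) and CDK6, a G1 kinase, from 39.7 to 18.8 FPKM (-1.19 ± 0.10). CCND2, a G1 cyclin that passed the filter only through the panobinostat arm, rose from 2 to 537 counts, and NR6A1, an orphan nuclear receptor, rose from 0.335 to 0.997 FPKM (1.46 ± 0.18). DICER1, MYC, CDK6, IGF2, SYNCRIP and TRIM71 are among the genes that stand on more than 1 list.

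**Figure D4:**
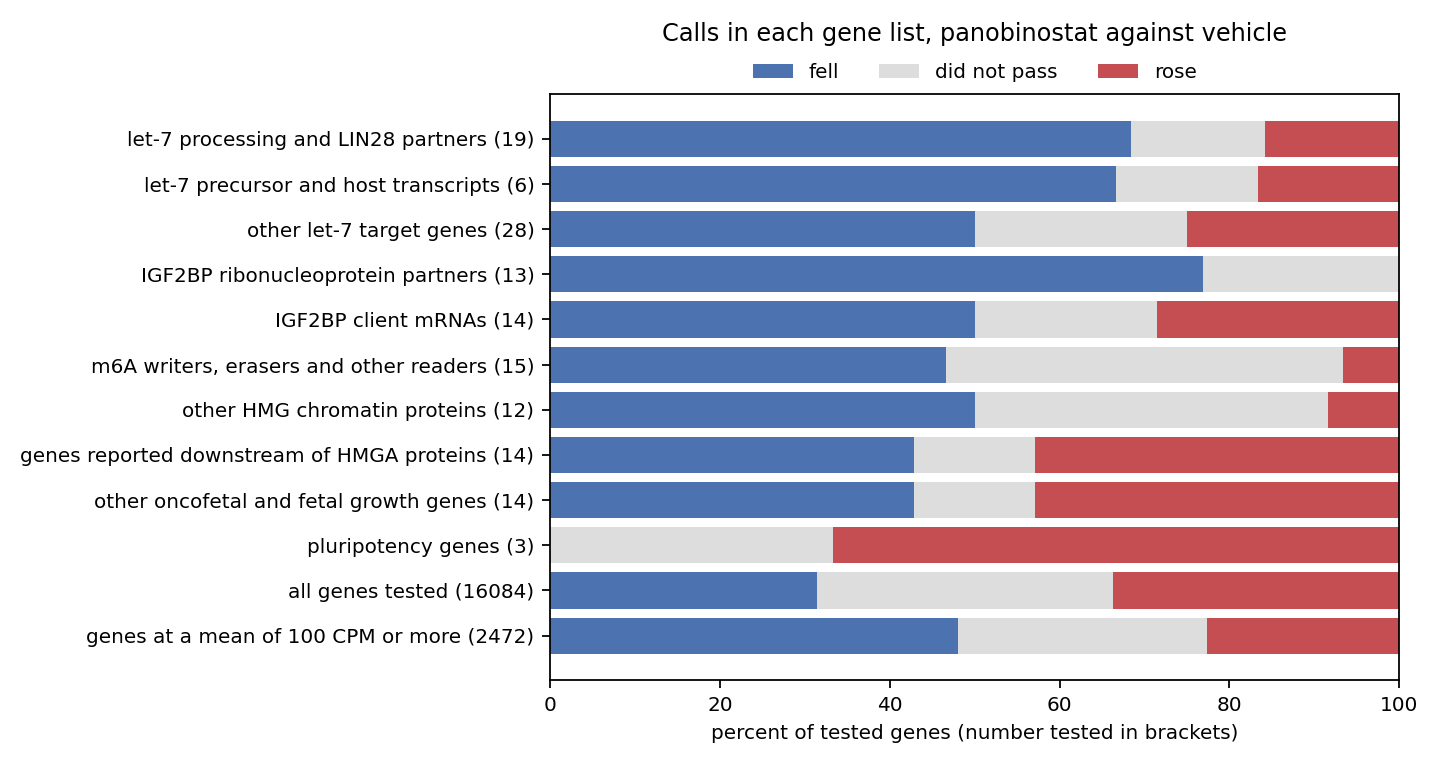
Percent of tested genes that fell, did not pass or rose with panobinostat in each of 10 gene lists (number tested in brackets) and, in the lowest bars, in all 16084 genes tested and the 2472 at a mean of 100 CPM or more. The IGF2BP ribonucleoprotein partners, with 10 of 13 fallen, and the let-7 processing genes, with 13 of 19, show the longest blue bars.

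Most partners of the IGF2BP proteins in their ribonucleoprotein particles fell. All 13 had a row and were tested, 10 fell, 0 rose, and PABPC1, FXR1 and ELAVL4 did not pass (median log2 fold change -0.45). Among the largest falls were those of SYNCRIP, described above, DHX9, a helicase (-0.85 ± 0.07 SE), and YBX1, a cold-shock protein (-0.80 ± 0.08). These are abundant genes (YBX1 went from 353 to 220 FPKM), the class in which 48.1% fell. The falls of ELAVL1 and MATR3 were not called in 8 of 17 alternatives each, and limma on log2 FPKM called 8 falls. FXR1 was called as risen with library size alone, upper quartile scaling and limma, and ELAVL4 with upper quartile scaling.

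Client mRNAs of the IGF2BP proteins went both ways, with 7 fallen and 4 risen of 14 tested (median log2 fold change -0.27). Of all genes tested 31.5% fell and 33.7% rose, and 48.1% of those at 100 CPM or more fell. IGF2, the growth factor that named the family, fell from 14.0 to 9.89 FPKM (-0.61 ± 0.13 SE; not called by limma on log2(FPKM + 1) without a filter, adjusted p = 0.0561), and MAPK4, a kinase, fell by 1.02 ± 0.15 on the log2 scale. H19, the noncoding RNA beside IGF2, rose from 2.15 to 3.93 FPKM (0.75 ± 0.13), and GLI1, a hedgehog effector, rose from 0.0641 to 1.66 FPKM. GLI1 and 1 other of the 4 rises, ABCB1, passed the filter only through the panobinostat arm. MYC rose from 37 to 75 counts (0.98 ± 0.31), a call lost without vehicle C or without panobinostat A (adjusted p = 0.0621 and 0.0580). CD44 (13 counts and 0) was not tested. Of the 15 m6A writers, erasers and other readers 7 fell and 1 rose (median -0.18). Falls in this list were about as common as among all genes at 100 CPM or more (48.1%, median -0.17). WTAP, a writer subunit, fell by 0.72 ± 0.07, RBM15B, another, by 0.44 ± 0.07 and YTHDF2, a reader that promotes decay, by 0.42 ± 0.08. METTL14, the partner of the methyltransferase, rose by 0.46 ± 0.09. Under library size alone, upper quartile scaling or limma, 3 of this list rose and 5 fell. The falls of CBLL1 and YTHDF1 were not called in 9 of 17 alternatives each.

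Among 12 other HMG chromatin proteins, which bind DNA or nucleosomes through unrelated domains, 6 fell and 1 rose (median log2 fold change -0.20). This was close to the 48.1% of all genes at 100 CPM or more that fell. HMGN2, a nucleosome binder, fell from 36.6 to 14.5 FPKM (-1.45 ± 0.11 SE), HMGB3 by 0.65 ± 0.10 on the log2 scale and HMGXB4 by 0.68 ± 0.07. HMG20B, a subunit of the CoREST repressor complex, rose from 5.93 to 21.3 FPKM (1.74 ± 0.08). Library size alone, upper quartile scaling or limma brought the rises to 2. Of 14 genes reported downstream of HMGA proteins 6 fell and 6 rose (median 0.06). Of these rises 2, IGF2BP2 and PLAU, passed the filter on low counts only through the panobinostat arm, so the balance of rises and falls is not read further. TWIST1 fell by 0.90 ± 0.07, while SNAI2 (0.69 ± 0.10), ID1 (0.97 ± 0.08) and PLAU, the urokinase (14 to 175 counts), rose.

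Other oncofetal and fetal growth genes did not share 1 direction with LIN28B, IGF2BP1, IGF2BP3 and HMGA1. Of 15 with a row 14 were tested, 6 fell and 6 rose (median log2 fold change 0.03), and 3 of the rises (AFP, PLAG1 and TPBG) passed the filter only through the panobinostat arm. GPC3, a fetal glypican, rose from 1.49 to 34.2 FPKM (4.42 ± 0.12 SE), TPBG, the oncofetal antigen 5T4, from 0.110 to 1.99 FPKM (4.02 ± 0.20), and PLAG1, a fetal zinc finger factor, from 0.0740 to 0.707 FPKM (3.08 ± 0.30). DLK1, a fetal membrane protein of neuroendocrine cells, fell from 41.9 to 7.96 FPKM (-2.50 ± 0.09). Of the pluripotency genes 4 had a row and 3 were tested. SOX2 rose from 0.306 to 6.15 FPKM (4.19 ± 0.18) and KLF4 from 273 to 547 counts (0.95 ± 0.15), and DNMT3B did not pass (5.53 and 6.85 FPKM), except under library size alone, upper quartile scaling and 5 further settings.

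**Figure D5:**
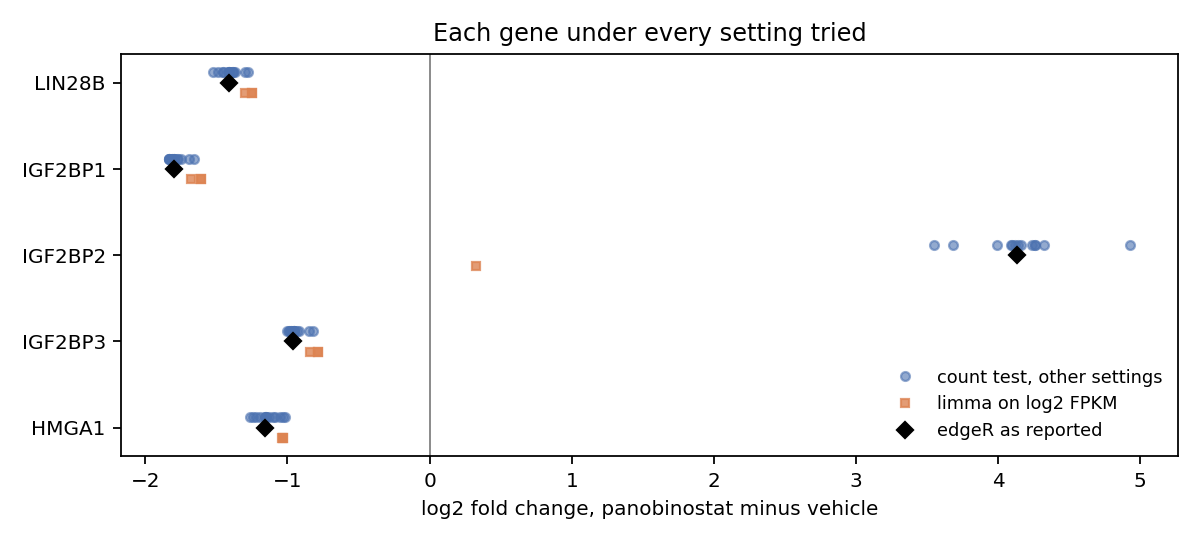
Log2 fold change (panobinostat minus vehicle) of LIN28B, IGF2BP1, IGF2BP2, IGF2BP3 and HMGA1 as reported (diamond), under the other settings of the count tests (circles) and by limma on log2 FPKM (squares). LIN28B, IGF2BP1, IGF2BP3 and HMGA1 stay between -1.83 and -0.785, and the square of IGF2BP2, at 0.326, reflects a pseudocount of 1 FPKM on a gene below that level.

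The falls of LIN28B, IGF2BP1, IGF2BP3 and HMGA1 were called under each of the 17 other settings tried. LIN28B ranged from -1.52 to -1.25, IGF2BP1 from -1.83 to -1.61, IGF2BP3 from -1.0 to -0.785 and HMGA1 from -1.26 to -1.02 on the log2 scale.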

How the data were processed

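The samples were 6 libraries of total RNA labelled HT1197, 3 per arm, grouped by their labels. The authors' deposited counts per gene were made with featureCounts, version 1.5.0-p3 per the file headers and 1.5.1 per the submitters' processing notes, which also name Novoalign 2.8 and hg38. Assignment was to Ensembl release 84 genes and used strand, per the file headers. The deposited FPKM values are the authors' own and serve to set levels of different genes side by side. Positions came from GENCODE release 29 (GRCh38), which held 22459 of 22718 identifiers, and sequences from GENCODE transcripts and RefSeq tables. The RefSeq promoter table held 4 of the 7 genes.

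After TMM scaling and a filter on low counts (filterByExpr with a minimum count of 10 and a minimum total of 15), edgeR 4.0.16 (R 4.3.3) tested panobinostat against vehicle on all 6 libraries with no covariate. A gene was called where the Benjamini-Hochberg adjusted p did not exceed 0.05. The steps were checked on simulated counts. Labels do not tie a library to a dish, so p-values reflect only how these samples vary, possibly for technical reasons, and intervals and floors cover counting error only. Spearman correlations within an arm were 0.993 to 0.997, and the 2 closest libraries differed by more than sampling noise (chi-square per gene 2.65). Per-library values are TMM-scaled CPM.

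The members and gene lists were chosen with earlier results of these data known. Named genes are the 7 members, up to 4 called genes per list (largest change, average of at least 1 CPM), a fixed set that includes MYCN, MYC, DICER1, DIS3L2, TUT4, TUT7, TRIM71, IGF2 and H19, neighbours and the 3 genes nearest in pattern. A few genes taken by this rule are not reported here. TRIM25, CD44, WDR82, PABPC1, ELAVL1, MATR3, ABCB1, AFP, DNMT3B, HMGA1 copies, FXR1, ELAVL4, the precursor genes, ETV5 and TRA2B and single markers were named after their values were seen. The same holds for POPDC3, GPNMB, GRM4, NRAS, CBLL1 and YTHDF1. Alternatives were DESeq2 1.42.0, other scalings and filters, a replicate block, a threshold of 0.01, limma 3.58.1 on log2(FPKM + 1) and log2(FPKM + 0.1), and each library left out. Leaving out both A libraries, and the list counts by limma, were added after seeing the data.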

Additional observations from a re-analysis of the deposited data

How the results depend on the processing

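The main test called 10482 genes, and every alternative stayed within 1.5 times of that (7808 to 11788, and 9568 to 10668 with 1 library left out). Of the members, 4 fell under each setting and 1 rose, except that 0 rose with a filter at a mean of 1 CPM or with limma on log2(FPKM + 1) or log2(FPKM + 0.1) with a filter at 1 FPKM, because these filters remove IGF2BP2. With 1 library left out the log2 fold change of LIN28B was -1.49 to -1.37, of IGF2BP1 -1.83 to -1.75, of IGF2BP3 -1.0 to -0.920 and of HMGA1 -1.26 to -1.02. That of IGF2BP2, which rests on 3 vehicle counts, was 4.13 and ran from 3.68 to 4.93, the latter without vehicle C, and was 3.55 without both A libraries. Library size alone and upper quartile scaling moved the median of all genes up by 0.113 and 0.139 on the log2 scale, and the share of calls that were rises from 51.7% to 61.0% and 63.2%. Of 220 list counts recomputed, 207 stayed within 1.5 times, and the 13 that did not were all counts of rises of 0 to 3 genes; the cause was not tested. The letters gave no clear pairing. The deviations of same-letter libraries correlated at 0.0815 (A), -0.0213 (B) and 0.104 (C), and those of libraries with different letters at -0.119 to 0.0469. The values for A and C were thus the highest, though small. With the letter as a replicate block 10541 genes were called, and the members gave -1.41 (LIN28B), -1.80 (IGF2BP1), 4.12 (IGF2BP2), -0.961 (IGF2BP3) and -1.15 (HMGA1) on the log2 scale, each still called; TUT4 was not (adjusted p = 0.0599). Depth limits IGF2BP2, TRIM71, CD44 and the let-7 precursor genes, which lie near the floor of 3 counts.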
